A study of Oryza sativa with 8 samples.

Results

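Rice roots take up nitrogen largely as ammonium in flooded soil, and the genes described here carry the first steps of that route. AMT1 proteins are membrane transporters that bring ammonium into root cells. Glutamine synthetase then joins ammonium to glutamate to give glutamine, in the cytosol (the GLN1 isoforms, also called GS1) or in plastids (GLN2, also called GS2). The 7 genes asked for were GLN1-1, GLN1-2, GLN1-3, GLN2, AMT1-1, AMT1-2 and AMT1-3, found by gene symbol or synonym, with or without the Os prefix. Of these, 6 had probe sets, out of 17905 genes with one. These 6 genes took 8 of 57194 probe sets, controls left aside. AMT1-3 (LOC4330007), the neighbour of AMT1-2 on chromosome 2, had none and is not analysed here. The locus called AMT1-2 below (LOC4330008) also lists AMT1-3 among its synonyms, and it is named after its own Os name, OsAMT1;2.

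The study read root RNA of greenhouse pot plants of rice cultivar IR64 on 8 Affymetrix arrays, 1 for each sample. The T plants carried 35S::OsPSTOL1, a protein kinase gene linked to tolerance of low phosphorus (P) behind a promoter active in most tissues, and the NT plants were null segregants of the same material without it. Roots came from T in P-deficient soil, NT in P-deficient soil, T in P-fertilised soil and NT in P-fertilised soil, with 2 biological replicates each. Plants were at heading in the P-deficient soil (called deficient below) and at mid-tillering in the P-fertilised soil (called fertilised), so soil and stage cannot be told apart in any difference between soils. Nothing in the labels says how many transgenic lines the T plants represent.

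Summed over all probe sets, an array held an intensity of 8060018 to 8802152. No probe set was named as PSTOL1 (0 found). A reporter probe set of the array, RPTR-Os-K01193-1_at, read 345.3 and 1887.6 (deficient) and 3348.2 and 3393.7 (fertilised) on the T arrays, against 10.8 to 198 on the NT arrays. The 3-prime to 5-prime ratio of the GAPDH control probe sets, which rises as RNA breaks down, was 198 and 3.05 on the T arrays of deficient soil and 1.15 to 2.16 on the other 6. Of 10 root marker names 9 had a probe set. Among them the silicon channel gene LSI1 read 2015.2 or more on every array, while HMA2 read 7.9 or less. The summed root marker signal was 2229.6 to 3088.3 in deficient soil and 8102.3 to 8551.9 in fertilised soil. On all deficient arrays 6 of the 9 were lower and 0 were higher. LSI1, at 2015.2 to 2772, made up most of the deficient sums. Some other root markers fell much further than the sum. CASP1 read 10.7 to 18.4 in deficient and 429.1 to 612.2 in fertilised soil. In the same order LSI2 read 26.6 to 106.8 and 2236.9 to 2732.7, and LSI6 33.1 to 54.8 and 941.4 to 1259.1. Of 13 green tissue marker names 5 had a probe set, and their summed signal was 149.2 to 321.2 and 142.1 to 951 in the same order. The part of these marker and RNA integrity differences in the results below was not tested, apart from a fit with the GAPDH ratio. In whole roots, fewer cells of a type and less RNA per cell cannot be told apart.

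Values are the deposited intensity on a linear scale. Levels of different member genes are not compared, and the marker sums above add probe sets of different genes. Changes are differences of log2(value + 32), which understate the change of low signals, with the standard error (SE) of the limma fit. A probe set is said to have risen or fallen where its limma adjusted p, over 34316 probe sets, was under 0.05. Of the 8 member probe sets 6 passed the filter on low signals, 1 for each gene. The others, a second probe set each of GLN2 and AMT1-1, were not tested.

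**Figure D1:**
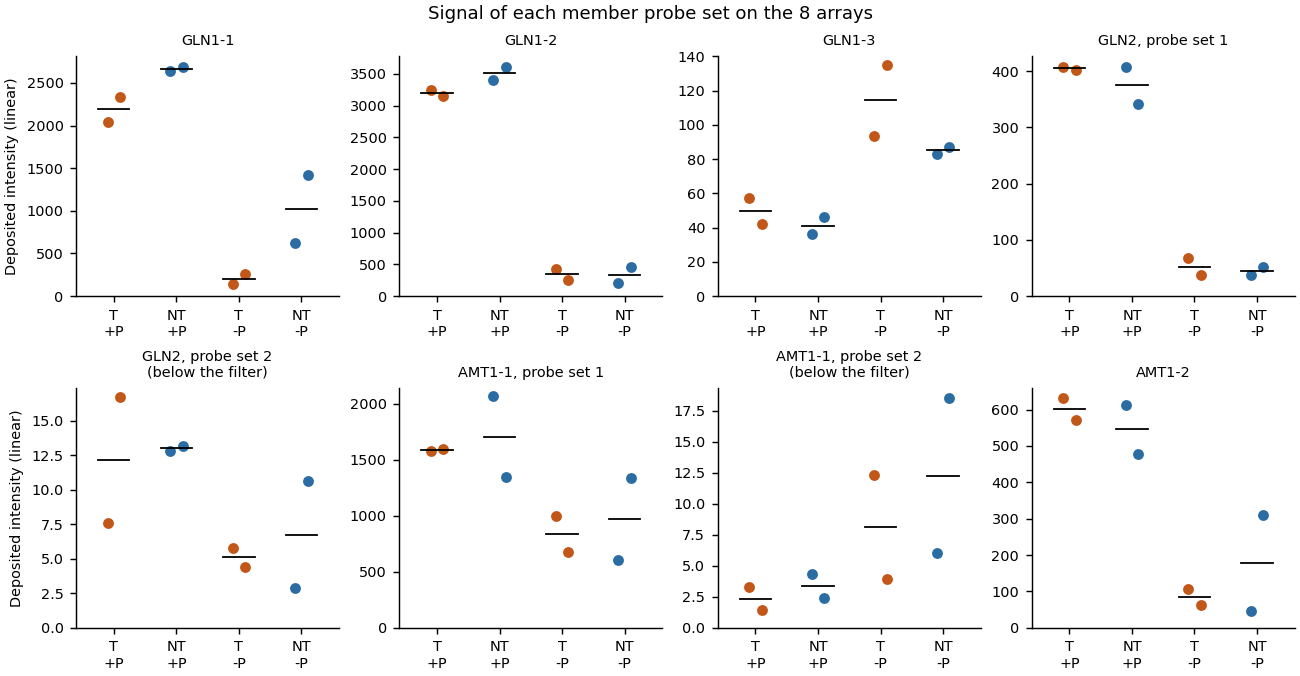
Deposited intensity (linear, each panel from 0) of the 8 member probe sets on each array, by genotype (T, NT) and soil (+P fertilised, -P deficient), with bars at group means of 2 arrays. All panels of tested probe sets part the soils, with GLN1-3 the one that is higher in P-deficient soil, and GLN1-1 alone has T well below NT there (143.2 and 260.8 against 618.5 and 1418.8).

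Between the soils, 5 of the 6 tested member probe sets were lower and 1 was higher in deficient soil over both genotypes. GLN1-2, GLN2, GLN1-1, AMT1-2 and AMT1-1 fell and GLN1-3 rose, and in each case the 4 arrays of one soil lay wholly on one side of the 4 of the other. The difference between soils is wide in these roots. Of all probe sets tested, 47.1% passed in either direction, 24.8% lower and 22.3% higher, and the arrays of the soils did not overlap for 43.9%. The median change of the tested members was -2.26, beside 0.01 over all probe sets tested. These counts describe probe sets that passed a filter on mean signal and were chosen by name with earlier results known.

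AMT1-1 (LOC4336365, chromosome 4) codes for an ammonium transporter found in rice roots and shoots. It read 993.8 and 677.6 in T, with 608.6 and 1335.9 in NT of deficient soil, and 1581.5 and 1596.9 in T, with 2068.4 and 1344.3 in NT of fertilised soil. The soils came close to touching, since the highest deficient array (1335.9, NT replicate 2) lay just under the lowest fertilised one (1344.3, NT replicate 2). The mean was 904 ± 333 in deficient and 1648 ± 303 in fertilised soil (SD, n = 4 arrays each), a ratio of 1.82. Over both genotypes AMT1-1 fell by 0.89 ± 0.25 (limma adjusted p = 0.0187).

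This was the smallest soil difference among the members that fell. Within T alone the change was -0.93 ± 0.36 (limma adjusted p = 0.0771) and within NT alone -0.86 ± 0.36 (0.101), so neither passed. The NT change was -0.31 without NT replicate 1 of deficient soil and -1.41 without replicate 2, and the latter passed (limma adjusted p = 0.0119). The T change passed in 4 of 16 alternatives, with an adjusted p of 0.0148 when the 4 T arrays were fitted alone. Over both genotypes it no longer passed without T replicate 2 of deficient soil (adjusted p = 0.065), T replicate 2 of fertilised soil (0.0527) or NT replicate 1 of fertilised soil (0.073). The other AMT1-1 probe set read 3.9 to 18.5 in deficient and 1.4 to 4.3 in fertilised soil. That range is overlapping, near the bottom of the scale, and ordered the other way.

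AMT1-2 (LOC4330008, chromosome 2) codes for an ammonium transporter known in rice as root-specific and induced by ammonium. It read 106.1 and 63.6 in T, with 47.2 and 311.1 in NT of deficient soil. In fertilised soil it read 630.9 and 572.8 in T, with 613.7 and 478.5 in NT. The fertilised arrays lay within a narrow band, and a single deficient array, NT replicate 2, stood far above the other 3. The means were 132 ± 122 and 574 ± 68.2 (SD, n = 4), a ratio of 4.35. AMT1-2 fell by 2.13 ± 0.40 over both genotypes (limma adjusted p = 0.00245), by 2.46 ± 0.56 in T (0.00959) and by 1.80 ± 0.56 in NT (0.0396).

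The size of the fall in NT depended on which deficient array was kept. It was -2.86 without NT replicate 2 of deficient soil and -0.74 without replicate 1. With the replicate block the NT fall did not pass (limma adjusted p = 0.0592), and it passed in 4 of 16 alternatives. In T the fall did not pass without T replicate 2 of deficient soil (adjusted p = 0.0596) or T replicate 1 of fertilised soil (0.0501).

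GLN1-2 (LOC4332108, chromosome 3) is the cytosolic isoform best known for assimilating ammonium in rice roots. Over both genotypes it had the largest difference between soils among the members tested. It read 431.6 and 257.4 in T, with 203 and 459 in NT of deficient soil. In fertilised soil it read 3242 and 3146.7 in T, with 3402 and 3608.4 in NT. Every fertilised array lay far above every deficient one, and the genotypes overlapped in deficient soil. The means were 338 ± 127 and 3349.8 ± 202 (SD, n = 4), a ratio of 9.92. GLN1-2 fell by 3.26 ± 0.24 over both genotypes (limma adjusted p = 1.27e-05), by 3.14 ± 0.34 in T (0.000212) and by 3.38 ± 0.34 in NT (0.00016). It passed in each of these comparisons under all the alternatives tried. In T alone GLN1-1 fell further, by 3.29 ± 0.36.

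GLN1-1 (LOC4330649, chromosome 2) is the cytosolic isoform tied in rice to normal growth and grain filling. It read 143.2 and 260.8 in T, with 618.5 and 1418.8 in NT of deficient soil. In fertilised soil it read 2043 and 2335.7 in T, with 2639.7 and 2687.4 in NT. The 4 groups followed each other without overlap, from T in deficient soil through NT in deficient and T in fertilised to NT in fertilised soil. The soil means were 610 ± 576 and 2426 ± 299 (SD, n = 4), a ratio of 3.98. GLN1-1 fell by 2.38 ± 0.26 over both genotypes (limma adjusted p = 0.000113).

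The soil difference of GLN1-1 was -3.29 ± 0.36 in T (limma adjusted p = 0.000252) and -1.47 ± 0.36 in NT (0.0154). The fall in NT no longer passed without NT replicate 1 of deficient soil (-0.89, adjusted p = 0.052) or without either NT array of fertilised soil (0.0723 and 0.0797). The difference between these soil effects, T minus NT, was -1.82 ± 0.51 and did not pass (interaction, limma adjusted p = 0.829). With the GAPDH ratio as a covariate the soil difference was -2.83 ± 0.45 in T and -1.54 ± 0.34 in NT. The T arrays of deficient soil had GAPDH ratios of 198 and 3.05, so genotype and RNA integrity cannot be told apart here.

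GLN1-3 (LOC4333896, chromosome 3), a cytosolic isoform known in rice mainly from spikelets, was the member that ran the other way. It read 93.3 and 135.2 in T, with 83.2 and 87.2 in NT of deficient soil. In fertilised soil it read 57.4 and 42.3 in T, with 36.3 and 46.1 in NT. Its lowest deficient array was above its highest fertilised one, at low signals in both soils. The means were 99.7 ± 24 and 45.5 ± 8.89 (SD, n = 4), a ratio of 2.19. GLN1-3 rose by 0.76 ± 0.13 over both genotypes (limma adjusted p = 0.00184), by 0.83 ± 0.19 in T (0.00957) and by 0.68 ± 0.19 in NT (0.025). The rise in NT did not pass when any NT array was left out (adjusted p from 0.0581 to 0.142), and the rise in T did not pass without replicate 2 of either soil (0.0576 and 0.0795).

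GLN2 (LOC4337272, chromosome 4) codes for the plastid isoform, best known for recovering ammonium from photorespiration in leaves. It read 67.7 and 37.2 in T, with 37.7 and 51.4 in NT of deficient soil. In fertilised soil it read 408.2 and 401.2 in T, with 407.6 and 341.9 in NT. The genotypes overlapped in both soils and the soils lay far apart. The means were 48.5 ± 14.4 and 390 ± 32 (SD, n = 4), a ratio of 8.04. GLN2 fell by 2.4 ± 0.15 over both genotypes (limma adjusted p = 5.19e-06), with -2.39 ± 0.21 in T and -2.41 ± 0.21 in NT.

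Because GLN2 is a gene of green tissue in leaves, its signal was read beside the green tissue markers. The summed marker signal was 951 on T replicate 2 of fertilised soil and 142.1 to 266.4 on the other fertilised arrays. GLN2 read 401.2 on that array, within the 341.9 to 408.2 of the other fertilised arrays. None of the 5 green markers (0) separated the soils on all arrays. What green tissue added to the GLN2 signal was not tested. The other GLN2 probe set read 2.9 to 10.6 in deficient and 7.6 to 16.7 in fertilised soil, with overlap and below the filter.

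**Figure D2:**
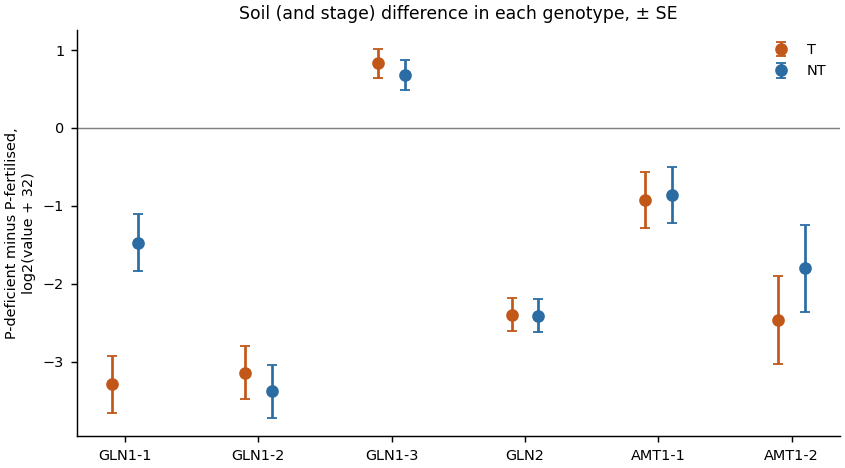
P-deficient minus P-fertilised difference in log2(value + 32), ± SE from limma, for the 6 tested member probe sets in T and in NT (2 arrays against 2 in each genotype). T and NT lie close together for GLN1-2, GLN1-3, GLN2 and AMT1-1, and GLN1-1 is -3.29 in T and -1.47 in NT.

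In T alone, 4 members fell and 1 rose, with AMT1-1 not passing, where 35.7% of all probe sets tested passed (20.2% lower and 15.5% higher). In NT alone the counts were the same, where 32.5% passed (17.1% lower and 15.5% higher). The comparisons in T and in NT use different arrays. Without 1 array the number of members that passed in NT was 2 when NT replicate 1 of deficient soil or either NT array of fertilised soil was left out. In T it was 3 without T replicate 2 of deficient soil. The interaction was tested for each of the 6 members and 0 passed in limma, with 1, GLN1-1, at an unadjusted p under 0.05 (0.00728). Over all probe sets 0 passed this interaction (0% called) and 2032 (5.92%) had an unadjusted p under 0.05.

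The genotype comparison asks whether constant expression of OsPSTOL1 went with other root levels of these genes in the same soil. In deficient soil 0 of the 6 members passed in limma, and 1 had an unadjusted p under 0.05, where 0.108% of all probe sets tested passed (0.0962% lower and 0.0117% higher). An unadjusted p under 0.05 was found for 13.3% of all probe sets in this comparison. The member with an unadjusted p under 0.05 was GLN1-1, at 202 ± 83.2 in T and 1019 ± 566 in NT (SD, n = 2 arrays each), a ratio of NT to T of 5.04. The difference was -2.10 ± 0.36 with a limma adjusted p of 0.094, which misses the threshold. Of all probe sets tested 0.216% had a T minus NT difference as low as this or lower.

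Both T arrays lay below both NT arrays of deficient soil, so leaving out 1 array could not change the sign of the GLN1-1 difference. Over the 16 alternatives the difference ran from -2.68 to -1.52. It passed in 2 of them, without T replicate 2 or NT replicate 1 of deficient soil, which left 1 array in that group. Without T replicate 2 it was -2.47, and the T array kept was the one with a GAPDH ratio of 198. Without that array (T replicate 1) the difference was -1.73 and did not pass. With the 4 arrays of deficient soil fitted alone it was -2.10 ± 0.44 (limma adjusted p = 0.399). Both T arrays with the lower GLN1-1 signals also had the higher GAPDH 3-prime to 5-prime ratios. GLN1-1 read 143.2 where that ratio was 198 and 260.8 where it was 3.05, against 618.5 and 1418.8 where it was 1.15 and 1.21. With the ratio as a covariate the difference was -1.57 ± 0.48 (limma adjusted p = 0.912). That fit called 0 of all probe sets tested for this comparison, against 37 in the main fit. In deficient soil the higher ratios were both on T arrays, so genotype and RNA integrity cannot be told apart. GLN1-1 has 1 probe set here, so no further reading of the same transcript can be set beside it.

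The remaining members differed little between genotypes in deficient soil relative to their spread. The T minus NT difference was 0.11 ± 0.34 for GLN1-2 (limma adjusted p = 0.917), 0.30 ± 0.19 for GLN1-3 (0.521) and 0.12 ± 0.21 for GLN2 (0.832). For the transporters it was -0.13 ± 0.36 for AMT1-1 (0.902) and -0.52 ± 0.56 for AMT1-2 (0.724). T and NT arrays overlapped for these genes other than GLN1-3, whose T arrays (93.3 and 135.2) were both above the NT arrays (83.2 and 87.2). In all 2 of 6 members had arrays that did not overlap, where the share over all probe sets was 40.5%. Leaving out NT replicate 1 or 2 of deficient soil in turn moved the AMT1-2 difference to -1.58 and 0.54, and that of AMT1-1 to -0.68 and 0.41.

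In fertilised soil 0 of the 6 members passed in limma, with 0 at an unadjusted p under 0.05, where 0.00291% of all probe sets tested passed. Differences ran from -0.28 ± 0.36 for GLN1-1 to 0.16 ± 0.19 for GLN1-3, each with a limma adjusted p of 1. The T arrays of GLN1-1 (2043 and 2335.7) and of GLN1-2 (3242 and 3146.7) were below their NT arrays, and the other 4 members overlapped. Arrays did not overlap for 36.5% of all probe sets in this comparison. Over both soils 0 of 6 passed in limma, where 0.0321% of all probe sets did (0.0262% lower and 0.00583% higher), and GLN1-1 at -1.19 ± 0.26 (adjusted p = 0.274) was the 1 member with an unadjusted p under 0.05 (0.00154), as 9.63% of all probe sets had.

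**Figure D3:**
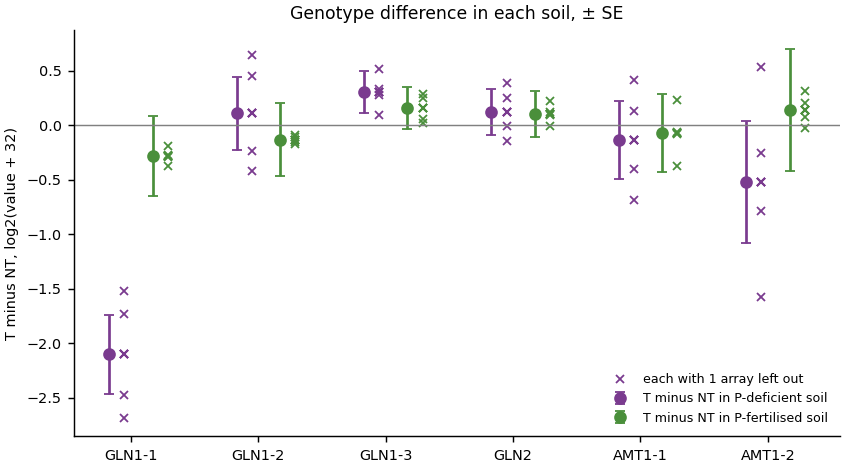
T minus NT difference in log2(value + 32) for the 6 tested member probe sets for each soil (P-deficient, P-fertilised), with circles and bars for the value from all 8 arrays ± SE and crosses for the value with each array left out in turn. GLN1-1 in P-deficient soil stays between -2.68 and -1.52, while the crosses of AMT1-2 in that soil run from -1.58 to 0.54.

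The members did not scatter evenly between replicate arrays. In NT of deficient soil, replicate 2 was above replicate 1 by 2.29 times for GLN1-1, 2.26 times for GLN1-2, 2.2 times for AMT1-1 and 6.59 times for AMT1-2. The same pair of arrays differed by 1.05 times for GLN1-3 and 1.36 times for GLN2. On the log2(value + 32) scale the AMT1-2 difference was 2.12, and 0.111% of all probe sets tested had a difference as high between these arrays. For GLN1-1 (1.16), AMT1-1 (1.09) and GLN1-2 (1.06) that share was 0.871%, 1.05% and 1.15%. These 4 members thus moved the same way between these arrays, and further than most probe sets did.

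In T of deficient soil the replicates differed in mixed directions, by less than in NT for GLN1-1, GLN1-2, AMT1-1 and AMT1-2 and by more for GLN1-3 and GLN2. Replicate 2 was lower for GLN1-2 (-0.68), AMT1-1 (-0.53), AMT1-2 (-0.53) and GLN2 (-0.53), and higher for GLN1-1 (0.74) and GLN1-3 (0.42). In fertilised soil the largest replicate difference of a member was -0.61, for AMT1-1 in NT. The SD of the replicate difference over all probe sets was 0.37 in T and 0.42 in NT of deficient soil, and 0.28 for each genotype in fertilised soil.

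**Figure D4:**
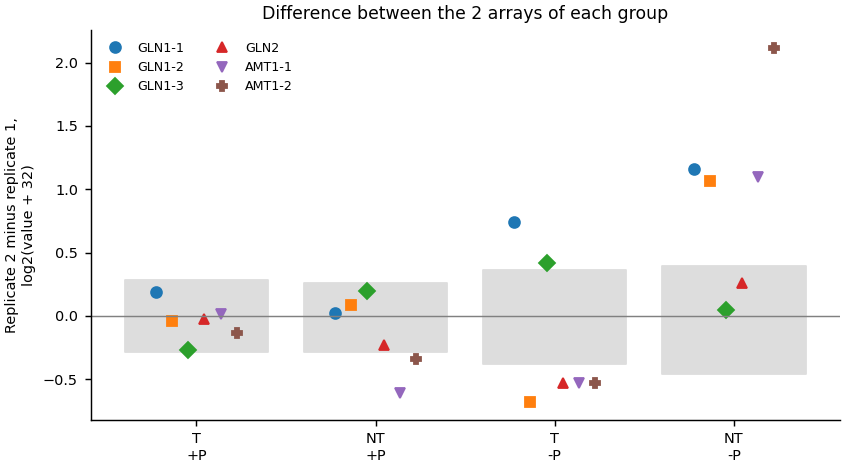
Replicate 2 minus replicate 1 in log2(value + 32) for the 6 tested member probe sets in each group, with a grey band of 1 SD around the median over all probe sets tested. In NT of P-deficient soil GLN1-1, GLN1-2, AMT1-1 and AMT1-2 lie above the band, AMT1-2 at 2.12, and most points of the P-fertilised groups lie within it.

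The genes with the most similar course over the 8 arrays were sought among 2782 probe sets with a literature name. Likeness was the root mean square difference between log2(value + 32) profiles, each centred on its own mean, so a smaller value is closer. The arrays share 2 soils that lie far apart, which shapes every such profile. For GLN1-1 the nearest were PDC (0.32), named for pyruvate decarboxylase of fermentation, the sucrose synthase gene OsSUS1 (0.45) and NAC071 (0.53). PDC read 36.9 and 75.2 in T, with 229.1 and 818.4 in NT of deficient soil, and 652.3 to 1097 in fertilised soil. Like GLN1-1, it was lower on both T arrays than on both NT arrays of deficient soil. PDC was picked for likeness over these same arrays, so this lends the GLN1-1 difference no support. T and NT arrays of deficient soil did not overlap for 40.5% of all probe sets tested.

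For GLN1-2 the nearest were ARD1 (0.26), the Aux/IAA gene IAA30 (0.27) and the haemoglobin gene NSHB1 (0.27). For GLN2 they were BHLH003 (0.12), the calcineurin B-like interacting kinase gene CIPK18 (0.13) and osysl15 (0.14), a transporter gene of iron uptake. For AMT1-1 they were MTR1 (0.18), the brassinosteroid receptor gene BRI1 (0.18) and OsPP2C28 (0.18). For AMT1-2 they were osysl12 (0.24), OsSWEET2a (0.30), a sugar transporter gene, and GT43A (0.30). OsSWEET2a read 178.3 and 446.3 on the NT arrays of deficient soil. It too was higher on replicate 2, a trait that its choice by likeness to AMT1-2 favours. For GLN1-3 they were FTSH2 (0.10), OsC3H49 (0.12) and VLN4 (0.13), with FTSH2 at 212.3 to 279.5 in deficient and 126.2 to 150.4 in fertilised soil.

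Other genes of nitrogen uptake and assimilation gave a context for the members. A list of 61 names matched 24 genes, of which 22 had 29 probe sets, and 28 of these were tested. In deficient soil over both genotypes 7 rose, 8 fell and 13 did not pass, where 47.1% of all probe sets passed. The median change of the list was -0.05, beside 0.01 over all probe sets. These genes thus split between the directions, unlike the 6 tested members with 5 lower and 1 higher. That contrast between the lists was not tested, and both lists were chosen with earlier results of these data known. Some genes of the nitrogen list also count with more than 1 probe set.

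Glutamate dehydrogenase, which can release ammonium from glutamate or bind it, changed in opposite directions among its genes. GDH1 read 94.2 to 175 in deficient and 1096.4 to 1270.3 in fertilised soil and fell by 2.93 ± 0.11 (limma adjusted p = 5.44e-07). A GDH2 probe set read 735.8 to 1125.7 and 144.8 to 191.5 in the same order and rose by 2.2 ± 0.16 (limma adjusted p = 1.41e-05). The remaining GDH2 probe sets, at 0.29 and 0.46, did not pass.

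Among ammonium transporters of other subfamilies 1 of 7 probe sets fell, 1 rose and the others did not pass. Of all probe sets tested 24.8% fell and 22.3% rose. AMT2-2 read 31.3 to 37.4 in deficient and 124.8 to 144.8 in fertilised soil and fell by 1.35 ± 0.10 (limma adjusted p = 1.44e-05). AMT3-2 read 278.4 to 546.3 against 92.4 to 116.2 and rose by 1.48 ± 0.18 (limma adjusted p = 0.000221). Its probe set type, _x_at, can bind related transcripts as well.

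Glutamate synthase turns glutamine back into glutamate, and 3 of its 4 probe sets fell, where 24.8% of all probe sets tested did. These were probe sets of GLU and GLT2, the latter at low signals (1.5 to 4 in deficient and 15.5 to 29.2 in fertilised soil). GLU, the ferredoxin-dependent form, fell by 1.11 ± 0.13 in the probe set with the smallest p (limma adjusted p = 0.000216). GLB, named for the PII signal protein of nitrogen status, fell by 1.02 ± 0.12 (limma adjusted p = 0.000183). NLP1, a NIN-like transcription factor gene of nitrate responses, rose by 1.02 ± 0.11 (limma adjusted p = 0.000148), and OAT, for ornithine aminotransferase, rose by 0.92 ± 0.12 in 1 of its 2 probe sets (limma adjusted p = 0.000257). Chosen after their values were seen, the other probe sets that rose were those of ARG1 (1.35), GDH3 (1.03) and NIGT1 (0.97). The others that fell were 1 of the nitrate reductase gene NIA1 (-1.18), a further one of GLU (-0.83), NRT2.3 (-0.64) and GLT2 (-0.62). The second NIA1 probe set read otherwise, at 0.12 over both genotypes (limma adjusted p = 0.285) and higher by 0.37 in NT (0.0454). The remaining GLU probe set was at -0.05 (limma adjusted p = 0.881).

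**Figure D5:**
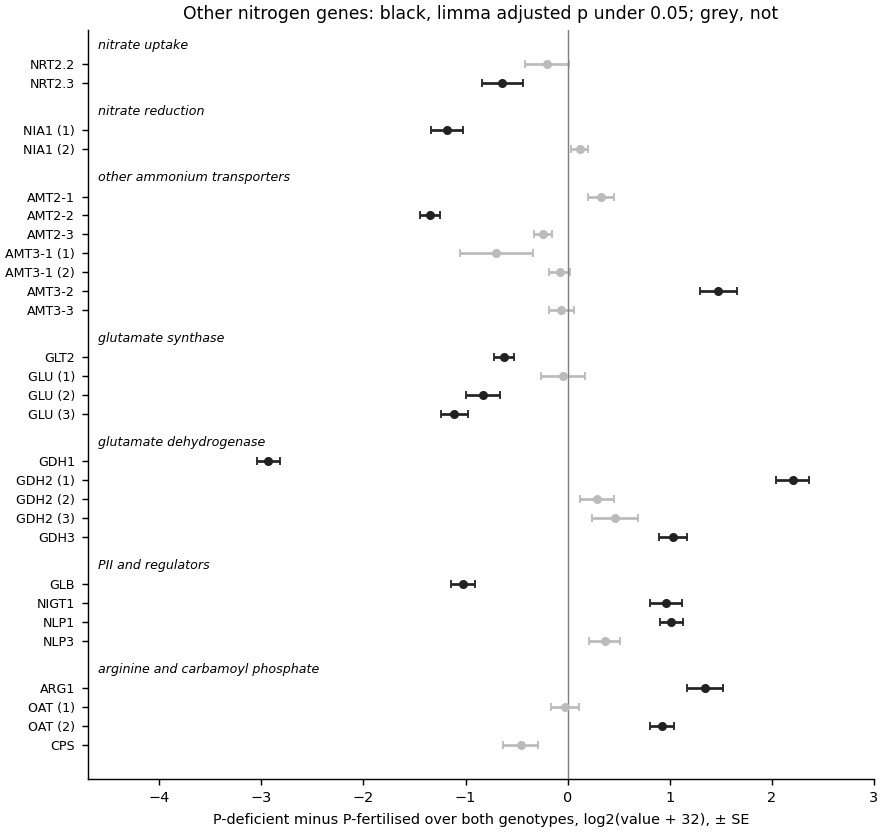
P-deficient minus P-fertilised difference over both genotypes in log2(value + 32), ± SE from limma, for the 28 tested probe sets of other nitrogen genes, by role, with numbers in brackets for probe sets of the same gene. GDH1 (-2.93) and GDH2 probe set 1 (2.2) mark the ends of the range, and 15 of the 28 passed.

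Between the genotypes in deficient soil 0 of the 28 list probe sets passed in limma, with 8 at an unadjusted p under 0.05, and the list median was -0.28 beside -0.02 over all probe sets. Of all probe sets 0.108% passed there and 13.3% had an unadjusted p under 0.05. The 8 were 1 probe set each of OAT (-0.99 ± 0.19, limma adjusted p = 0.123), NLP1 (0.68), AMT2-3 (-0.46), GDH2 (-1.08), GDH1 (-0.55), NIA1 (its second, -0.30), NRT2.2 (-0.76) and NLP3 (-0.50). NLP1 read 511.2 and 484.4 in T, with 295.7 and 299.6 in NT (limma adjusted p = 0.184). For OAT the probe set at -0.99 read 0.3 and 2.7 in T, with 48.7 and 22.7 in NT, while its other probe set read 497.4 and 476.3 in T, with 478.7 and 379.5 in NT. The T arrays here are those with GAPDH ratios of 198 and 3.05. In fertilised soil 0 of the 28 passed in limma, and 0 had an unadjusted p under 0.05.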

How the data were processed

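Root RNA of 8 samples in 4 groups of 2 was measured. The deposited values are intensity values, 1 per probe set and array, on a linear scale, made by the authors with GCOS, per the submitters' processing notes. The GCOS version and parameters were not given in the sources used here. The deposited arrays share a trimmed mean of 100.01 to 100.02, so they had been scaled, and no normalization was added. The number of arrays limits the precision. Log2(value + 32) was fitted with limma 3.58.1 in R 4.3.3 (4 group means, eBayes with trend, 4 residual degrees of freedom, Benjamini-Hochberg at 0.05 over all 34316 probe sets). Left out were 187 control probe sets and the 40 percent with the lowest mean. P-values rest on the spread between 2 arrays per group, pooled over groups, and the labels do not say whether replicates came from separate plants or pools.

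Names came from the platform annotation and a RefSeq table of assembly ASM3414082v1, used for names, chromosomes and neighbours only. All 22436 probe sets with 1 gene matched. Members and lists were chosen with earlier results of these data known. In the nitrogen list, 3 name matches whose other synonyms belong to other families were left out. Named genes are all members, the 8 list probe sets with the smallest p per comparison and the 3 genes most alike for each member. The other list probe sets that passed between soils are named as well, outside this rule. Sequences were not used here, so the planned promoter search was not run. The fit was tested on simulated data. Alternatives were a pseudocount of 1 or 100, no filter or 60 percent left out, quantile normalization, the replicate block, the GAPDH ratio as a covariate, each array left out in turn and the 4 arrays compared alone.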

Additional observations from a re-analysis of the deposited data

How the results depend on the processing

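The number of members that passed between soils over both genotypes was 6, and 5 to 6 with 1 array left out. It ranged from 2 to 5 in NT and from 3 to 6 in T, and from 0 to 1 for T minus NT in P-deficient soil. For T minus NT in P-fertilised soil, over both soils and the interaction it was 0 under every alternative run. The list of other nitrogen genes gave 13 to 19 between soils. Of the single member values recomputed under the alternatives, 585 kept sign and side of the threshold, 26 lost the threshold, 7 gained it and 36 changed sign, none of these 36 past the threshold in the main setting. With the GAPDH ratio as a covariate T minus NT in P-deficient soil turned to -0.40 for GLN1-2 and -0.25 for GLN2, over both soils to -0.0748 for GLN2, and the interaction to -0.26 for GLN1-2 and -0.36 for GLN2. Quantile normalization turned T minus NT to 0.0043 for AMT1-1 in P-fertilised soil and to 0.037 for GLN1-2 over both soils, and a pseudocount of 100 turned the GLN2 interaction to -0.0206. The cause was not tested. With 1 array left out, T minus NT in P-deficient soil ran from -0.42 to 0.64 for GLN1-2, -0.14 to 0.39 for GLN2, -0.68 to 0.41 for AMT1-1 and -1.58 to 0.54 for AMT1-2. In P-fertilised soil it ran from -0.0096 to 0.22 for GLN2, -0.37 to 0.24 for AMT1-1 and -0.0282 to 0.31 for AMT1-2. Over both soils it ran from -0.28 to 0.25 for GLN1-2, -0.0163 to 0.25 for GLN2, -0.37 to 0.17 for AMT1-1 and -0.72 to 0.34 for AMT1-2. The interaction ran from -0.29 to 0.77 for GLN1-2, -0.0616 to 0.35 for GLN1-3, -0.25 to 0.28 for GLN2, -0.61 to 0.48 for AMT1-1 and -1.72 to 0.40 for AMT1-2. A group left with 1 array was assumed to vary like the others.

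The labels do not say whether replicate numbers pair the samples. Replicate differences of 2 groups correlated between -0.26 and 0.21 across 34316 probe sets, which cannot settle it. With the replicate block 6 members passed between soils, 4 in NT, 5 in T and 0 between genotypes. Crossing the numbers of NT in P-deficient soil, chosen after seeing the data, also gave 0 for T minus NT in that soil.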
